A study of Homo sapiens with 2 samples.

Results

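The genes described here are the ephrin, Slit-Robo and netrin guidance genes: 14 Eph receptors, 8 ephrins, 3 SLIT ligands, 4 ROBO receptors, 3 netrins and 6 netrin receptors. They were found through the RefSeq accession that the array gives for each probe, and made up 38 of the 19061 genes that could be named this way. SBC-3, an adherent cell line from a small-cell lung cancer (SCLC), was transfected with #1 siHOTAIR, a small interfering RNA against the long noncoding RNA HOTAIR, or with siGFP, a control siRNA against a green fluorescent protein. RNA of each was hybridised to 1 one-colour human expression array, so each condition had 1 sample. No test between conditions was possible and no p-value is given, and culture, array and siRNA cannot be told apart. HOTAIR itself had a signal of 108 in the #1 siHOTAIR-transfected cells and 244 in the siGFP-transfected cells, a log2 ratio of -1.22, which is the direction the labels give, whereas GAPDH gave -0.00 and the 2 probes of ACTB -0.05 and -0.02.

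Guidance genes steer growing axons and migrating cells. Eph receptors are tyrosine kinases that bind ephrins held on the surface of a neighbouring cell, and the contact signals into both cells, often as repulsion. SLIT proteins are secreted and repel cells that carry ROBO receptors, and netrins attract through DCC and NEO1 or repel through UNC5 receptors. Many of these genes are also active in epithelia, vessels and tumours.

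The following sequences are shown to identify the agent and the genes: the antisense strand of #1 siHOTAIR, with its seed (bases 2 to 8) in capitals, and the 250 bases before the start of EPHB3 and EFNB2, the 2 guidance genes with a probe measured on both arrays that differed at least 2-fold. The promoters come from RefSeq on GRCh38.p14, are written in the direction of the gene, and have CpG dinucleotides in capitals. The EPHB3 window is chr3:184561535-184561784 on the + strand and the EFNB2 window is chr13:106535663-106535912 on the - strand.
#1 siHOTAIR antisense strand: uCUCUCUGuacucccguucuu
EPHB3 promoter: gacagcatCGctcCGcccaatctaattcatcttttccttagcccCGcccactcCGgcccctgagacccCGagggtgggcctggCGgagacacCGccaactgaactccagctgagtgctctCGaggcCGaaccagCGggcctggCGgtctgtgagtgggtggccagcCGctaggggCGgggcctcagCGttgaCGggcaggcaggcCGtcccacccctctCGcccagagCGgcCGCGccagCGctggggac
EFNB2 promoter: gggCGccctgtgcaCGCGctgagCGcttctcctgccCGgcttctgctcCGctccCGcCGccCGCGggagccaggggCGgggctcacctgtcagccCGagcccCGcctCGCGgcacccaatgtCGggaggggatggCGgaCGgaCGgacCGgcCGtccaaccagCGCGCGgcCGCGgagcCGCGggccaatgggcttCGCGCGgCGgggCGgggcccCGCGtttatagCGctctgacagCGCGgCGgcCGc

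The EPHB3 window held 21 CpG dinucleotides and had 70.0% G and C, and the EFNB2 window held 40 with 78.4% G and C. For a gene with several promoter windows, the window with the most CpG dinucleotides was taken. Among the 32 guidance genes with a promoter in the RefSeq table, the median was 23, and 31 genes (96.9%) had 10 or more. Over the 27305 genes of that table the median was 12 and the share 54.9%. Over single windows the median was 20 for the 43 of guidance genes and 11 for all 35116. The 19 guidance genes with a probe that could be compared had a median of 27, and the 13 without one had 17.

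Of the 51 probes for the 38 guidance genes, 26 passed the scanner software's call of well above background on both arrays, 3 passed it on 1 array and 22 did not pass it on either. Of all 42402 probes measured on both arrays, 21428 passed it on both and 24117 on at least 1, a like share. Signals are background-corrected intensities in arbitrary units, and they order the arrays for 1 probe, not different genes. A log2 ratio is #1 siHOTAIR over siGFP after both arrays were set to the same 75th percentile. The SD beside it is the measurement error expected from repeated spots within an array and does not cover differences between cultures. Counts by measurement SDs use this SD. The scanner software's own error estimate was larger for some probes, among them those of EPHB2 and NTN1. Of the 29 probes that could be compared, 2 were at least 2-fold higher in the #1 siHOTAIR-transfected cells (EPHB3 and UNC5B, 6.90%), where 3.30% of all 24117 compared probes were. One, EFNB2 (3.45%), was at least 2-fold lower, against 4.10% of all. Of the 21428 probes that passed the call on both arrays, 321 were at least 2-fold higher and 329 lower. The other 26 guidance probes did not reach 2-fold.

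In smaller steps, 10 guidance probes (34.5%) were higher by over 2 measurement SDs, where 21.6% of all compared probes were. Another 3 (10.3%) were lower, against 19.4%, leaving 16 within the error. Over the 24 genes compared, with the brightest probe taken for each, the median log2 ratio was 0.03, beside 0.02 over the 13014 named genes compared. Of the 24 guidance genes 14 lay above 0 and 10 below, where 52.3% of all named genes compared lay above 0.

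**Figure D1:**
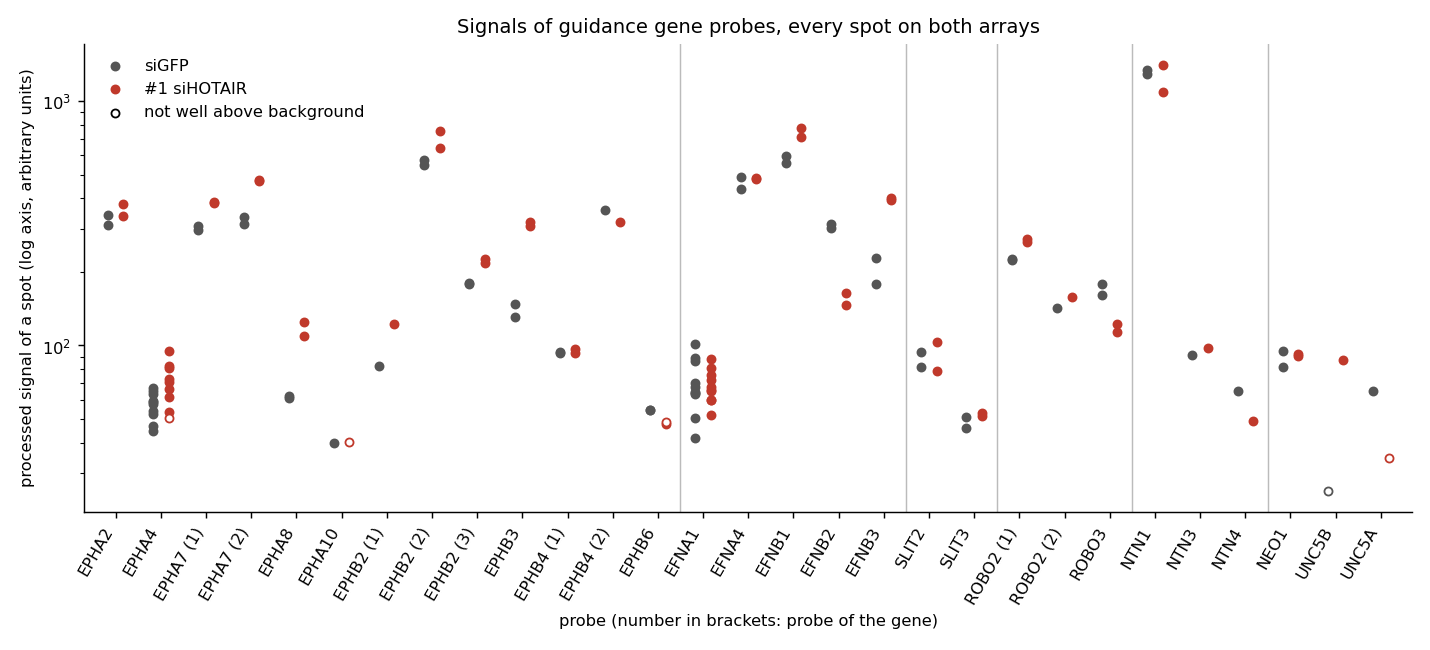
Processed signal (log axis, arbitrary units) of every spot of the 29 compared guidance probes, siGFP in grey and #1 siHOTAIR in red, with open circles for spots not well above background; vertical lines part the families. The spots of EPHB3 and EFNB3 are higher and those of EFNB2 lower in the #1 siHOTAIR-transfected cells, with no overlap between the arrays, whereas the 10 spots of EFNA1 overlap.

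Of the 14 Eph receptors, 9 could be compared. Their 13 compared probes held 7 higher by over 2 measurement SDs (53.8%) and 0 lower, where 21.6% and 19.4% of all compared probes were. The 7 were the probes of EPHB3 and EPHA8 and every compared probe of EPHB2 and EPHA7, so several came from the same gene. The median over the genes was 0.25, the value of EPHA4, beside 0.02 over all named genes compared. EPHB3, a receptor for ephrin-B ligands, had a signal of 308.9 and 319.6 in its pair of spots on the #1 siHOTAIR array and of 147.3 and 131.3 on the siGFP array. Both spots were thus higher with #1 siHOTAIR, and the probe's log2 ratio was 1.13 (measurement SD 0.13), a 2.19-fold difference. Of all probes on both arrays 0.957% had a ratio this high or higher, and of the 3342 of them with a mean signal within 0.5 log2 units of that of EPHB3, 1.74% were at least 2-fold higher. The ratio fell short of 2-fold without background correction (0.76) and with normexp (0.81).

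EPHB2, a receptor of the same class, was read by 3 probes, all higher with #1 siHOTAIR. Their log2 ratios were 0.52 (signals 122 and 82.4), 0.27 (697 and 561) and 0.26 (221 and 179). The measurement SDs were 0.18, 0.08 and 0.13, so that all lay above 0 by about 2 SDs or more. By the scanner software's own error estimate (0.25, 0.15 and 0.16) the ratios of 0.27 and 0.26 lay within 2 SDs of 0. EPHB4, the receptor that pairs with ephrin-B2 between veins and arteries, gave signals of 94.9 and 93.6 with 1 probe and 319 and 359 with the other. Their log2 ratios were -0.03, which turned positive under spike-in scaling and without scaling, and -0.22, and both lay within 2 measurement SDs of 0. EPHB6, whose kinase domain is inactive, had signals of 48.0 and 54.5 and a log2 ratio of -0.23 (SD 0.49). EPHB1 was not well above background on either array.

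Among the class A receptors, EPHA7 was read by 2 probes, both higher. Their signals were 472.7 and 323.1 (log2 ratio 0.50) and 384.2 and 301.9 (0.30), each with an SD of 0.11. EPHA8 had signals of 124.3 and 109.2 on the #1 siHOTAIR array and 60.8 and 61.9 on the siGFP array, a log2 ratio of 0.88 (SD 0.39). Both of its spots were higher, and the ratio ran from 0.39 without background correction to 1.02 with spike-in scaling, but its other probe, for another transcript, was not well above background on either array, with signals of 8.25 and 8.69.

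EPHA4, which binds ephrins of both classes, had 9 usable spots with #1 siHOTAIR, from 50.3 to 95.1 with a median of 70.6, and 10 with siGFP, from 44.7 to 66.9 with a median of 58.3. The ranges overlapped, 7 of the 9 spots usable on both arrays were higher, and the log2 ratio was 0.25 (SD 0.22). Most of the usable EPHA4 spots were printed in the upper rows of the array. With the lower rows only, the log2 ratio of EPHA4 was 0.06. EPHA2, a receptor often abundant in epithelial tumours, gave 358 and 326, a log2 ratio of 0.09 (SD 0.13), with its spots on either side of 0. One EPHA10 probe was well above background with siGFP only, with signals of 40.1 and 39.8, so no fold is given. EPHA1, EPHA3, EPHA5 and EPHA6 were not well above background on either array.

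**Figure D2:**
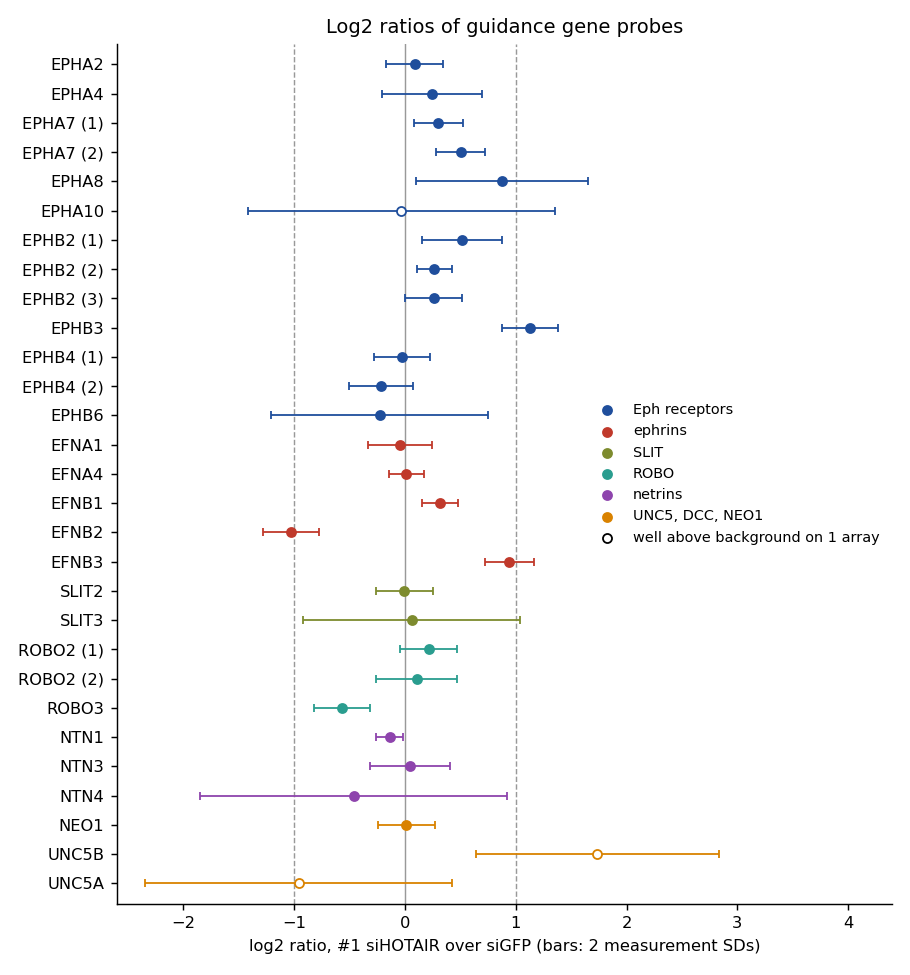
Log2 ratio (#1 siHOTAIR over siGFP) of the 29 compared guidance probes, with bars of 2 measurement SDs, coloured by family; open circles are probes well above background on 1 array, and dashed lines mark 2-fold. Of the probes on both arrays EPHB3 (1.13), EFNB3 (0.94) and EPHA8 (0.88) lie farthest to the right and EFNB2 (-1.03) farthest to the left, and the open circles stand at their measured signals, while against the lowest signal well above background on the dim array they would stand at 1.57 (UNC5B) and -0.86 (UNC5A).

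All 3 ephrin-B ligands, which span the membrane and signal backwards into their own cell, could be read on both arrays, and they did not move the same way. EFNB2 had signals of 164.5 and 146.8 in its pair of spots with #1 siHOTAIR and of 313.5 and 300.8 with siGFP. Both spots were lower, with a log2 ratio of -1.03 (SD 0.13), 2.04-fold lower, and 1.40% of all probes on both arrays had a ratio this low or lower. It fell short of 2-fold without scaling (-0.98), with spike-in scaling (-0.89), with normexp (-0.81) and without background correction (-0.76). EFNB3 had signals of 395.2 and 401.8 with #1 siHOTAIR and of 178.0 and 227.1 with siGFP. Its log2 ratio of 0.94 (SD 0.11) was 1.92-fold higher and so just inside the 2-fold line, as EFNB2 was just outside it. EFNB1 was at 743 and 578, a log2 ratio of 0.32 (SD 0.08).

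The ephrin-A ligands, held to the membrane by a lipid anchor, moved little where they could be read. EFNA1 had 10 spots on each array, from 51.9 to 88.3 with a median of 66.9 with #1 siHOTAIR and from 41.7 to 101 with a median of 66.3 with siGFP. They overlapped fully, 4 of 10 were higher, and the log2 ratio of -0.04 (SD 0.15) turned positive under spike-in scaling and without scaling. EFNA4 gave 481 and 463, a log2 ratio of 0.01, which turned negative under quantile normalization and when arrays were set to the median of the probes on both. EFNA2, EFNA3 and EFNA5 were not well above background on either array, and the probe of EFNA2 had signals of 31.1 and 15.9.

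Among the Slit-Robo genes, ROBO3, a receptor that lets commissural axons cross the midline, was the one that differed by over 2 measurement SDs. Its signal was 118 in the #1 siHOTAIR-transfected cells and 169 in the siGFP-transfected cells. The log2 ratios of its pair of spots were -0.58 and -0.56, and that of the probe was -0.57 (SD 0.13), 1.48-fold lower. ROBO2, a receptor for SLIT ligands, gave 268 and 224 with 1 probe (log2 ratio 0.22) and 158 and 142 with the other (0.10), both within 2 SDs of 0. The ligands SLIT2 (90.3 and 87.7, log2 ratio -0.00) and SLIT3 (52.3 and 48.5, log2 ratio 0.06) were within the error, and the sign of each changed with the scaling or background correction. SLIT1, ROBO1 and ROBO4, the last known from endothelium, were not well above background on either array.

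Among the netrins, NTN1, the secreted ligand of DCC and UNC5 receptors, was at 1232 and 1314, a log2 ratio of -0.14 (SD 0.06), with spots at 0.02 and -0.30. Its spots thus lay on both sides of 0, and the ratio lay within the scanner software's own error estimate of 0.145. NTN3 gave 97.2 and 91.3 (0.04, SD 0.18) and NTN4, a laminin-binding netrin of basement membranes, 49.0 and 65.4 (-0.46, SD 0.69), each from 1 spot and within the error.

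Of the 6 netrin receptors 3 could be compared, and of these only NEO1 passed the call on both arrays. UNC5B, a dependence receptor that mediates repulsion, had a signal of 87.5 with #1 siHOTAIR and of 25.4 with siGFP, where it was not well above background. Its #1 siHOTAIR signal stood 2.96-fold above the lowest siGFP signal that was well above background. Some brighter signals also missed the call, such as an ABL1 probe at 34.9 with siGFP and an EPHA4 spot at 50.3 with #1 siHOTAIR. The figure thus holds for that reference level and for background-corrected signals only. UNC5A, of the same family, had 34.7, not well above background, and 65.4 with siGFP. The latter stood 1.81-fold above the lowest #1 siHOTAIR signal that was well above background, on the same terms. Each rested on 1 spot. The measurement SD of the log2 ratio was 0.55 for UNC5B and 0.69 for UNC5A, which left UNC5A within 2 SDs of 0, and without background correction their log2 ratios were 0.46 for UNC5B and -0.15 for UNC5A, both short of 2-fold. NEO1, a relative of DCC, gave 91.7 and 88.0, a log2 ratio of 0.01 whose sign changed with the processing, and DCC, UNC5C and UNC5D were not well above background on either array.

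**Figure D3:**
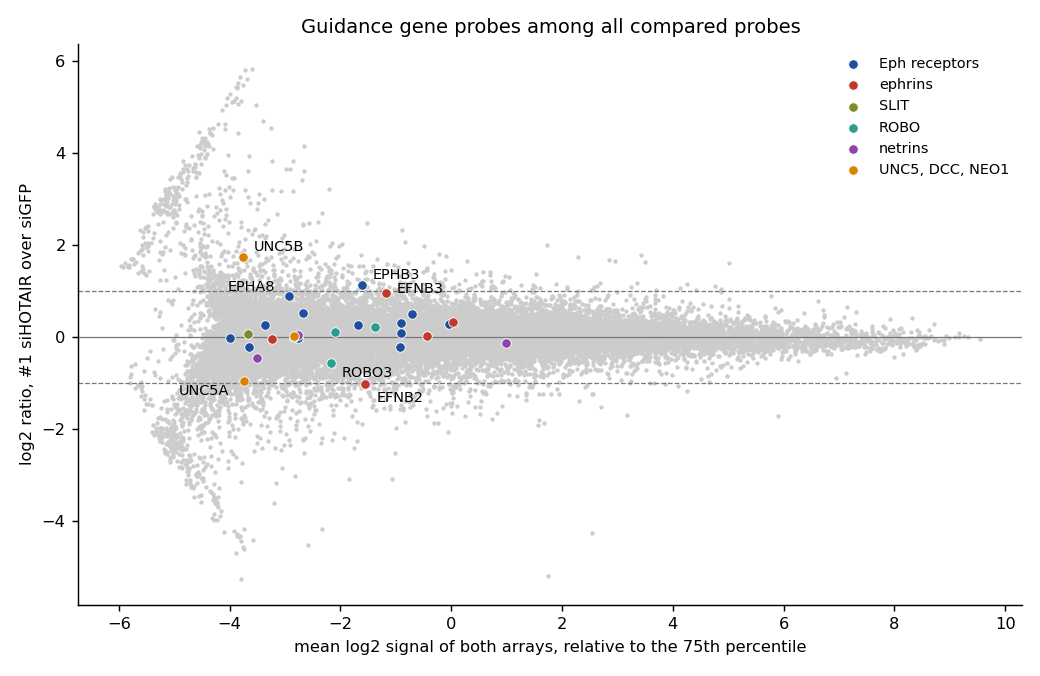
Log2 ratio (#1 siHOTAIR over siGFP) against the mean log2 signal of both arrays relative to the 75th percentile, for all 24117 compared probes (grey) and the 29 guidance probes (coloured by family). The guidance probes lie mostly below the 75th percentile, where the grey cloud is wide, and EPHB3, EFNB3 and EFNB2 sit near its edge.

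In all, 14 of the 38 guidance genes had no probe well above background on either array and 24 had one. Of all 19061 named genes, 13014 had one. The 22 guidance probes on neither array include some of genes read by another probe. These probes had signals from 7.74 to 31.1 with #1 siHOTAIR and from 5.88 to 16.9 with siGFP. The median log2 ratio of these dim probes was 0.35, beside 0.34 over all probes on neither array, so no fold was taken from them. RNA from fewer cells and less RNA per cell cannot be told apart in such bulk samples.

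Where 2 or more spots were printed, 21 guidance probes on both arrays allowed spots to be compared. Of these, 9 had all spots higher, 4 had all lower and 8 had spots in both directions, where 44.3%, 36.3% and 19.3% of all 5291 such probes did, and the median SD of their spot ratios was 0.13 log2 units. Position on the slide was examined because 4.36% of compared spots in the upper rows of the array were at least 2-fold higher and 4.70% lower, against 2.12% and 3.53% in the lower rows, parted where earlier results of these data had shown changed spots to crowd. Both spots of EPHB3 (rows 174 and 265) and of EFNB2 (rows 239 and 288) were printed in the lower rows, as was that of UNC5B (row 377), whereas that of UNC5A was in row 9. EFNB3 had a spot in the upper rows (row 44) and one in the lower (row 374), and both were higher.

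Of 66 other genes of these pathways, 65 could be named and 48 could be compared, with 59 probes, all on both arrays. One probe (1.69%) was at least 2-fold higher and 0 were lower, beside 3.30% and 4.10% of all compared probes. By the measurement error, 24 (40.7%) were higher by over 2 SDs and 9 (15.3%) lower, beside 21.6% and 19.4% of all, and 26 were within it. The median over the genes was 0.15, beside 0.02 over all named genes compared. The probe past 2-fold was that of DRAXIN, a secreted repellent that binds netrin receptors, with signals of 121 and 53.9 from 1 spot and a log2 ratio of 1.12 (SD 0.55).

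All 6 compared genes among the other ligands and co-receptors had log2 ratios above 0, with a median of 0.54, where 52.3% of all named genes compared lay above 0, and 4 of them were higher by over 2 measurement SDs, beside 21.6% of all probes. SDC1, a heparan sulphate proteoglycan, was at 4396 and 2626 (log2 ratio 0.70, SD 0.06) and GPC1, a glypican that binds SLIT proteins, at 3826 and 2746 (0.43, SD 0.06). Such proteoglycans hold guidance cues at the cell surface. The remaining 8 genes of the list, among them FLRT1, FLRT2, FLRT3 and NTNG1, were not well above background.

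Of the effectors inside the cell, VASP, which extends actin filaments and belongs to the Ena/VASP family that ROBO receptors recruit, had 10 spots with signals from 354 to 460 (median 423) with #1 siHOTAIR and from 201 to 245 (median 220) with siGFP. All 10 spots were higher, the ranges did not overlap, and the log2 ratio was 0.88 (SD 0.05). ENAH, of the same family, gave -0.05 (SD 0.07) on a probe at 5482 and 5490 and 0.72 (SD 0.49) on one at 58.6 and 34.5. MYO9B, an unconventional myosin, gave 1450 and 771 (0.87, SD 0.07), with its pair of spots at 0.83 and 0.90. Both spots were printed in the upper rows of the array (rows 28 and 108).

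Among the Eph and ephrin effectors, RASA1, a Ras GTPase-activating protein, gave 73.8 and 40.6 (log2 ratio 0.82, SD 0.39). Its pair of spots gave 0.44 and 1.19, the latter with a siGFP signal of 31.6 that was not well above background. The probes of ADAM10, the protease that cuts ephrins, disagreed, with log2 ratios of 0.77 from 1 spot and -0.34 from 2 spots. The adaptor NCK2 gave 0.63 and 0.35. Over all the pathway lists, the lowest ratios were those of PITPNA, CAP2, FYN, the lower ADAM10 probe and VAV2. PITPNA, a phosphoinositide transfer protein linked to netrin signalling, gave 5050 and 6515 (-0.41, SD 0.05), and CAP2, an actin-binding protein, gave -0.37 (SD 0.18). FYN, a Src family kinase, gave -0.36 (SD 0.03), and VAV2, a guanine nucleotide exchange factor, gave -0.29 (SD 0.08). By list the median log2 ratio was 0.12 for the Eph and ephrin effectors, 0.13 for those of SLIT and ROBO, and 0.04 for those of the netrins.

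**Figure D4:**
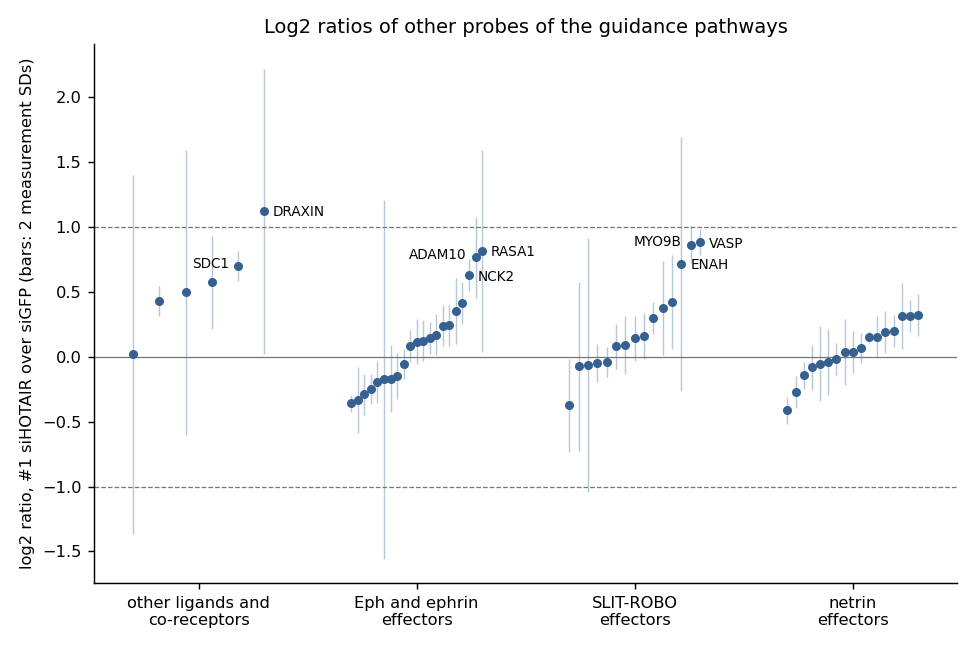
Log2 ratio (#1 siHOTAIR over siGFP) of the 59 compared probes of other guidance pathway genes in 4 lists, ordered within each list, with bars of 2 measurement SDs and dashed lines at 2-fold. All 6 points of the other ligands and co-receptors lie above 0, from 0.02 to 1.12, and the lists of effectors spread to both sides.

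As a check of the label, markers of other lineages and of neuroendocrine cells were read on the same arrays. Summed signals below are unscaled and run over all probes of a list, those not well above background included. Of 11 neuroendocrine genes, 3 passed the call on both arrays, 3 on the #1 siHOTAIR array only and 5 on neither, INSM1, SYP, UCHL1 and GRP among the last. DLL3 was at 679 and 570 (log2 ratio 0.21), ENO2 at 620.2 and 770.1 (-0.36) and NEUROD1 at 213 and 372 (-0.85). CHGA, a granin of secretory granules, was at 72.2 and 10.2. Its #1 siHOTAIR signal stood 2.44-fold above the lowest siGFP signal well above background. Some siGFP signals that missed the call were brighter than that level. CHGB (27.9 and 7.43) and 1 probe of NCAM1 (25.5 and 7.20) were too dim for such a figure. The list summed to 1731 with #1 siHOTAIR and 1802 with siGFP.

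Epithelial markers summed to 3361 and 3271, with KRT8 at 2825 and 2557 (log2 ratio 0.10) on its brightest probe and 431 and 565 (-0.44) for KRT18. EPCAM (9.19 and 25.1), a second KRT18 probe (16.2 and 36.1) and a second KRT8 probe (31.5 and 54.0) passed the call with siGFP only and a KRT19 probe (39.4 and 27.0) with #1 siHOTAIR only, and CDH1 was not well above background. Mesenchymal markers summed to 27330 and 25394. Among them VIM was at 11289 and 10119 (0.11) and COL1A1 at 832 and 414 (0.96), COL1A2 was at 3758 and 3741 (-0.04), the probes of CDH2 gave 0.06 and -0.27, FN1 passed the call with siGFP only (24.0 and 57.2), and COL3A1 and DCN were not well above background. Of the endothelial markers (summed 167 and 160) CDH5 could be compared, at 121 on each array, and PECAM1 and VWF could not. Of the blood cell markers (284 and 254) CD14 was at 111 and 121 and 1 PTPRC probe at 106 and 61.0 (0.75, SD 0.55), another PTPRC probe passed with siGFP only (12.0 and 20.7), and CD3E was not well above background. The part of these differences in the guidance genes' values was not tested.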

How the data were processed

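The arrays were Agilent SurePrint G3 Human 8x60K arrays, read with Agilent Feature Extraction 10.10.1.1 per the submitters' processing notes. The intensities used here are the processed signals in the scanner files, which the authors' software gives after background correction, with no scaling between arrays. A genome build is not given in the sources used here. The deposited value table equals the background-subtracted signal of the same files (largest difference 0). Each array had 58717 spots that were not controls, of which 393 (#1 siHOTAIR) and 375 (siGFP) marked as outliers were left out. The 75th percentiles were 650.3 and 629.9, no spot was saturated, and 52.1% and 55.3% of probes were well above background. Per the file headers both arrays came from the same scan. The number of arrays, 1 per condition, limits the precision.

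Signals were taken as log2, each array's 75th percentile was subtracted, and a mean was taken over the spots of each probe. Probes entered the comparison if the software called 50% or more of their spots well above background on at least 1 array. On 1 array only, a bound was computed against the lowest signal well above background (37.3 and 28.6). The measurement SD came from probes with 10 spots, in 6 levels of signal. Python 3.11.15 (pandas 2.3.3, numpy 2.4.6) and R 4.3.3 (limma 3.58.1, for the normexp background correction) were used, and the scripts were tested on simulated data. The spots' mean signal was not a column of the files, so median signals were used for normexp and for uncorrected signals. Members and lists were chosen with earlier results of these data known. Named were all members, HOTAIR, ACTB, GAPDH and, of the pathway lists, probes past 2-fold and up to 5 with the largest differences in each direction; SDC1, GPC1, NCK2, ENAH and the marker genes were chosen after their values were seen. Symbols came from the RefSeq table of GRCh38.p14, and 58.5% of probes were named. Promoter motifs and some of the marker genes examined are not reported here.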

Additional observations from a re-analysis of the deposited data

How the results depend on the processing

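Of 15 alternative settings, 11 gave a value for HOTAIR and none of these turned its sign. Of 330 values of the 29 guidance probes 294 stayed within the measurement SD, 36 moved further and 0 turned the sign of a called value; 22 probes kept 1 sign throughout. HOTAIR's log2 ratio was -0.73 without background correction and -0.76 with normexp. The count of guidance probes at least 2-fold higher was 2 as reported. It was 4 under spike-in scaling and with a 1.5-fold threshold, and 3 with no filter on dim probes. It was 1 with a 3-fold threshold, with probes on both arrays only and with 2 or more spots only. Without background correction and with normexp it was 0. The count lower, 1 as reported, was 2 at 1.5-fold and 0 at 3-fold, without background correction, with normexp, without scaling, under spike-in scaling and with 2 or more spots (where each spot had to pass). EFNB2 ranged from -1.06 to -0.76, EPHB3 from 0.76 to 1.27, EFNB3 from 0.58 to 1.08, UNC5B from 0.46 to 1.88 (0.56 with normexp) and UNC5A from -0.99 to -0.15. For UNC5B and UNC5A these are signals as measured, not well above background on 1 array. Against the lowest signal well above background on that array they were 1.57 and -0.86. The pathway count higher, 1 as reported, was 8 at 1.5-fold, 3 under spike-in scaling and with no filter on dim probes, 2 with the lower rows of the array only, and 0 at 3-fold, without background correction, with normexp and with 2 or more spots; the count lower, 0 as reported, was 1 with no filter. Of all compared probes, 4.25% were higher and 3.24% lower under spike-in scaling, 8.50% and 9.74% at 1.5-fold, 1.56% and 1.70% at 3-fold, 0.717% and 0.639% without background correction, 0.941% and 0.775% with normexp, 1.24% and 1.61% with 2 or more spots, 3.62% and 3.73% without scaling, 2.21% and 3.39% with the lower rows only, and 4.56% were higher with no filter. Spike-in scaling moved the median of all compared probes from 0.01 to 0.15 and that of the guidance genes from 0.03 to 0.17. Dim signals limit the ratios, and HOTAIR, with 1 spot, gave no value with 2 or more spots. No paired analysis was possible because each condition had 1 array. The causes were not tested.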
